A study of Mus musculus with 6 samples.

Results

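Genes that mark or equip the endothelium, the cell layer that lines blood and lymphatic vessels, were compared between the descending colon of Muc2-/- and wild-type mice. The list held 32 names. Of these, 31 matched a gene name among the 55849 gene rows of the count and FPKM tables, and the name Cldn5-like matched none. The 31 genes comprised 19 pan-endothelial genes, 7 adhesion and leukocyte-trafficking genes and 5 lymphatic genes. They were chosen by name, not by their values.

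The study sequenced polyadenylated RNA of the colon from C57BL/6 wild-type mice and Muc2-/- mice, all aged 12 weeks and without any treatment, with 3 libraries in each group. Muc2 is the gel-forming mucin of colonic mucus, and the series title places the work in chronic colitis and epithelial barrier integrity. The titles call the samples crypts, whereas the protocols describe pieces of descending colon. The mutated allele is not described in the labels, nor is it stated how many animals a library holds, so p-values measure only the spread between these libraries, which may be technical.

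Endothelial cells take their identity from receptor tyrosine kinases that read vascular endothelial growth factors and angiopoietins, from junction proteins such as VE-cadherin, and from transcription factors of the ETS and SOX families. Lymphatic endothelium is set apart by the transcription factor Prox1 and by the receptor Flt4 (VEGFR3), and in the gut it carries absorbed fat, fluid and migrating immune cells away from the mucosa. Venules of the inflamed intestine display adhesion molecules that capture leukocytes from blood, with Madcam1 as the ligand of the gut-homing integrin of lymphocytes.

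Library totals ran from 16395432 to 20336459 counts. Levels are counts scaled to a common library size (CPM) with TMM factors, which correct library totals for composition, and SD is over the 3 libraries of a group. Where a group has 0 counts in a library, 3 counts are the limit that counting allows, at 0.143 to 0.198 CPM by library. Muc2 itself measured 2474, 6966 and 2626 CPM in wild-type 1, 2 and 3, and 756, 1020 and 941 CPM in Muc2-/- 1, 2 and 3, so it was lower in every Muc2-/- library but not absent. The change came to -2.15 on the log2 scale (edgeR, adjusted p = 0.103; DESeq2, adjusted p = 3.27e-05). The libraries of a group were far apart. Wild-type 1 and Muc2-/- 2 stood at opposite ends of the first principal component, which held 51.6% of the variance. That component also parted the groups, at -89.9 to -17.2 in wild-type and 26.9 to 87 in Muc2-/-. Wild-type 1 had the highest value of its group for 24 of the 29 tested members, and wild-type 3 the lowest for 18. Mitochondrial genes took 3.49% to 8.98% of counts in wild-type and 1.04% to 3.50% in Muc2-/-.

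The promoters of some members are shown first, for the letters that the results below refer back to. RefSeq (GRCm38.p6) gave 24 promoter windows for 19 of the 31 genes, and the 250 bases before the transcription start were searched on both strands. Flt4, Prox1 and Mmrn1 are the lymphatic genes with the largest differences between the groups. Kdr is the blood-vessel counterpart of Flt4, and Madcam1 is the gut-homing ligand. Capitals mark matches to the NF-kappaB consensus, the motif of the factor that drives many inflammatory genes. Each sequence runs 5′ to 3′ on the strand of its gene, and Prox1 is given for the first of its windows.
Flt4, chr11:49609429-49609678, plus strand: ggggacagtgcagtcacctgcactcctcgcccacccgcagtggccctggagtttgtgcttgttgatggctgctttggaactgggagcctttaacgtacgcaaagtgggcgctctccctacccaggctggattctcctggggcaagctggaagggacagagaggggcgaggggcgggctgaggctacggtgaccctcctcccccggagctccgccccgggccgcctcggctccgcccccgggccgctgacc
Prox1, chr1:190170828-190171077, minus strand: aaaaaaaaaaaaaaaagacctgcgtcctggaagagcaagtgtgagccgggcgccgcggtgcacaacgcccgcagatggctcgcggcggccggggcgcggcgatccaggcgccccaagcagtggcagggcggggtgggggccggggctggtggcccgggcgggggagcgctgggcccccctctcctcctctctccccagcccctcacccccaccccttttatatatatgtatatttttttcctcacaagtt
Mmrn1, chr6:60944067-60944316, plus strand: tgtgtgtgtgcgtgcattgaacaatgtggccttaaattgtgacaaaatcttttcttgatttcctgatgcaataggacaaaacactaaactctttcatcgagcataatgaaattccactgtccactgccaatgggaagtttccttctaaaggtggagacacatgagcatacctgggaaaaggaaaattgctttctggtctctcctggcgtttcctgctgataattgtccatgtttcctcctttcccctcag
Kdr, chr5:75978456-75978705, minus strand: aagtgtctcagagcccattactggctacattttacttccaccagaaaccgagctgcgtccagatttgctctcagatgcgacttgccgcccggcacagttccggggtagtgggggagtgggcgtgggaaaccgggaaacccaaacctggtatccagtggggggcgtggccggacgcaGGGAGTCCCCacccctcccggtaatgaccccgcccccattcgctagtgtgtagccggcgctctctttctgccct
Madcam1, chr10:79664309-79664558, plus strand: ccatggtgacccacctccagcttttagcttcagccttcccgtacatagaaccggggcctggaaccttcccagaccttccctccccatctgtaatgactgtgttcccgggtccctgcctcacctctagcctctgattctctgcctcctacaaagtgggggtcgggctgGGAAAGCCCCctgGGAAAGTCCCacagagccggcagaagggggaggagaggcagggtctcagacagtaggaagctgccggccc
The 3 lymphatic sequences hold no match to the motifs searched, Kdr holds 1 NF-kappaB match and Madcam1 holds 2. An NF-kappaB match occurred in 3 of the 24 member windows (Flt1, Kdr and Madcam1) and in 3.90% of the 32851 windows of the same length in the table. The ETS core AGGAAGT occurred in 4 of 24 (Egfl7, Eng and Flt1) against 7.69% of all windows. The ETS core CCGGAAGT occurred in 0 of 24 against 2.88%. Both ETS cores share the letters GGAAGT but cannot lie on the same site. A match is a description of letters, not of binding.

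The 5 lymphatic genes were all lower on average in Muc2-/- colon. Flt4, Prox1, Mmrn1 and Ccl21a had values in the 3 Muc2-/- libraries that lay below all 3 wild-type values, and Lyve1 overlapped between the groups. These were 4 of 5 genes, beside 15.2% of all tested genes. None passed the edgeR test over all 16107 tested genes, which called 20 genes in all. Flt4, Prox1 and Mmrn1 passed the same threshold in DESeq2 (3 of 5, beside 6.59% of all genes lower), which called 1867 genes in all. In bulk RNA, fewer cells of a type and less RNA per cell cannot be told apart.

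Flt4, the receptor for the lymphatic growth factors Vegfc and Vegfd, lies on chromosome 11, 49500090 to 49543566, plus strand, in the coordinates of the count table. It measured 14.9, 7.44 and 6.62 CPM in wild-type 1, 2 and 3, and 2.68, 0.990 and 3.27 CPM in Muc2-/- 1, 2 and 3. Every Muc2-/- library was below every wild-type library, and wild-type 1 and Muc2-/- 2 were the extremes. The group means were 9.64 ± 4.54 and 2.31 ± 1.18 CPM (SD, n = 3), with a log2 fold change of -2.05 ± 0.53 (SE). The adjusted p was 0.105 in edgeR and 0.00245 in DESeq2.

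Mmrn1, a secreted multimerin abundant in lymphatic endothelium and platelets, lies on chromosome 6, 60901960 to 60966362, plus strand. It measured 26.0, 12.8 and 11.2 CPM in wild-type and 6.12, 2.90 and 4.44 CPM in Muc2-/-, again without overlap of the groups. The log2 fold change was -1.89 ± 0.43 (SE), with an adjusted p of 0.103 in edgeR and 0.000879 in DESeq2. Of platelet markers that could share Mmrn1, Gp1bb had 0 counts in all 6 libraries, and the summed level of the 5 listed markers ran from 5.53 to 5.97 CPM in wild-type and from 8.68 to 11.3 CPM in Muc2-/-. Most of that sum was Pf4, at 4.13 ± 0.543 and 8.05 ± 0.925 CPM (SD, n = 3), while Itga2b was at 1.49 ± 0.686 and 1.51 ± 0.581 CPM, and Gp9 and Ppbp had 6 and 0 counts in wild-type and 0 and 4 in Muc2-/-. Their part in the Mmrn1 value was not tested.

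Prox1, the master transcription factor of lymphatic identity, lies on chromosome 1, 189850232 to 189902911, minus strand. It measured 4.03, 3.02 and 2.90 CPM in wild-type and 0.714, 1.19 and 1.17 CPM in Muc2-/-. The 3 values of each group lay close together and the groups were well apart. The log2 fold change was -1.69 ± 0.44 (SE), with an adjusted p of 0.105 in edgeR and 0.0142 in DESeq2. Prox1 is also made by enteroendocrine cells. The summed enteroendocrine markers measured 386, 320 and 516 CPM in wild-type and 333, 254 and 255 CPM in Muc2-/-, overlapping between the groups. Of the 6 markers, 5 had a negative log2 fold change, with a median of -0.76 over the 6. Pyy, the 1 positive, measured 102, 73.8 and 157 CPM against 147, 121 and 110 CPM. Chga, Chgb and Gcg were lower without overlap (3 of 6, beside 15.2% of all tested genes). In edgeR 4 were lower at an unadjusted p under 0.05, beside 12.7%. Gcg, which encodes proglucagon, fell in DESeq2 (log2 fold change -1.64, adjusted p = 6.94e-05). The part of enteroendocrine cells in the Prox1 value was not tested.

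Ccl21a, the chemokine with which lymphatic vessels draw in dendritic cells and T cells, measured 77.1, 28.3 and 23.2 CPM in wild-type and 22.7, 15.4 and 15.7 CPM in Muc2-/-. Wild-type 1 stood far above the other libraries, and the lowest wild-type and highest Muc2-/- values nearly touched. The log2 fold change was -1.26 ± 0.46 (SE) (adjusted p = 0.177 in edgeR and 0.0603 in DESeq2), and without wild-type 1 it was -0.52. Ccl21a has near-identical gene copies, so its reads are uncertain between them: Ccl21b had 1 count in all 6 libraries and Ccl21d had 0. Stromal cells of lymphoid follicles also make this chemokine. The summed follicle markers measured 145, 13.3 and 7.002 CPM in wild-type and 41.8, 12.9 and 57.0 CPM in Muc2-/-, with wild-type 1 highest here too, and their part in the Ccl21a value was not tested.

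Lyve1, a hyaluronan receptor of lymphatic capillaries that some tissue macrophages share, measured 23.7, 9.003 and 14.7 CPM in wild-type and 8.68, 3.23 and 9.13 CPM in Muc2-/-. Wild-type 2 lay within the Muc2-/- range. The log2 fold change was -1.17 ± 0.49 (SE), with an adjusted p of 0.223 in edgeR and 0.115 in DESeq2, and without wild-type 1 it was -0.76. The macrophage markers went the other way and summed to 143, 72.6 and 94.8 CPM in wild-type and 200.5, 149 and 212.5 CPM in Muc2-/-. Among them Cd163, a scavenger receptor of resident macrophages, fell in DESeq2 (adjusted p = 0.0179), and C1qa, a complement component, rose (adjusted p = 0.0127). The part of macrophages in the Lyve1 value was not tested.

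**Figure D1:**
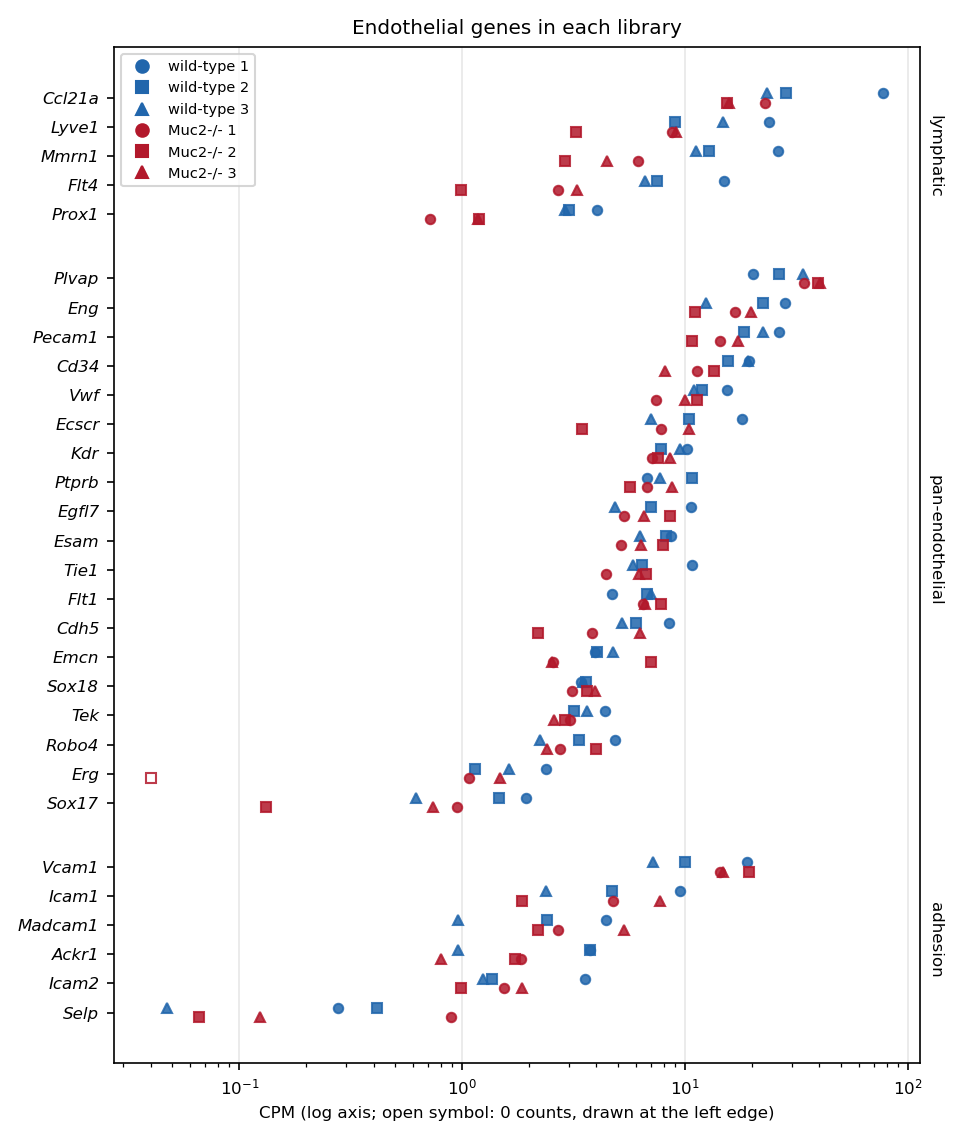
Level of each member in each library, in CPM on a log axis, with wild-type in blue and Muc2-/- in red and 1 symbol per library. The 3 red symbols lie left of the 3 blue ones for Ccl21a, Mmrn1, Flt4 and Prox1, lie right of them for Plvap, and mix with them for most pan-endothelial and adhesion genes; Sele, at 5 counts in each group, is not drawn.

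Over the whole list, edgeR called 0 of the 29 tested members at an adjusted p under 0.05, beside 0.124% of all tested genes (3 lower and 17 higher). At an unadjusted p under 0.05, edgeR gave 7 members lower and 0 higher, beside 12.7% of all tested genes lower and 8.23% higher. The 7 were the 5 lymphatic genes, Pecam1 and Cd34. Groups did not overlap for 7 members that were lower in Muc2-/- and for 1 that was higher, beside 15.2% and 13.4% of all tested genes. DESeq2 called 3 of 30 members lower and 0 higher, beside 6.59% and 3.23% of the genes it gave an adjusted p for. The edgeR call also changed with the settings. Flt4 and Mmrn1 fell with no filter on low counts (beside 3.04% of all genes lower) and with the replicate number as a block (2.78%), and Mmrn1 fell without wild-type 3 (5.68%).

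The median log2 fold change was -1.69 over the 5 lymphatic genes, -0.39 over the 19 pan-endothelial genes and -0.20 over the 5 tested adhesion genes, beside -0.01 over all tested genes, whose quartiles were -0.48 and 0.34. These medians describe the lists. The difference between the lists was not tested.

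**Figure D2:**
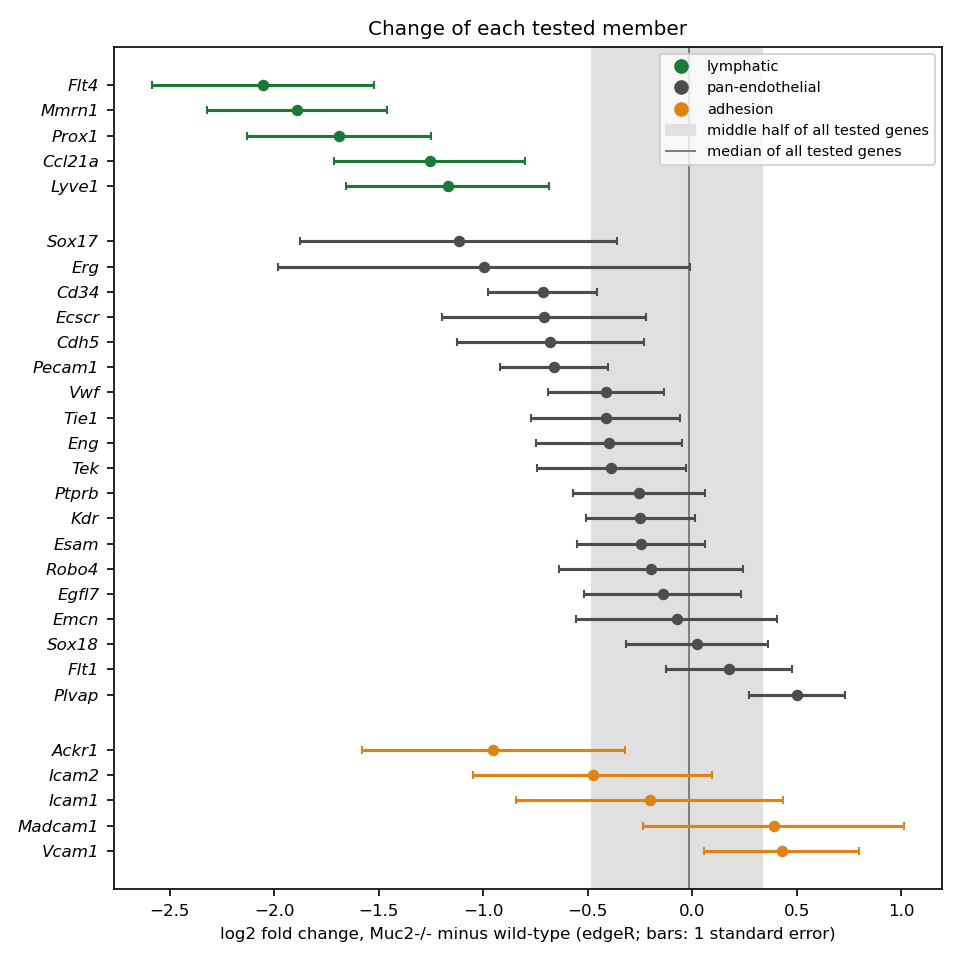
Log2 fold change (Muc2-/- minus wild-type) of the 29 tested members from edgeR, with bars of 1 standard error and the range between the quartiles of all tested genes in grey. The 5 lymphatic genes, from -2.05 to -1.17, lie left of the grey band, and 12 of the 19 pan-endothelial points lie inside it.

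Set against the pan-endothelial genes of the same library, the lymphatic genes took a smaller share in Muc2-/- colon. The summed lymphatic level was 70.0%, 34.7% and 34.8% of the summed pan-endothelial level in wild-type 1, 2 and 3, against 28.4%, 15.5% and 20.0% in the Muc2-/- libraries in the same order. The groups did not overlap, nor did they with Plvap left out of the pan-endothelial sum. Ccl21a alone gave 39.6% to 52.9% of the lymphatic sum in wild-type and 46.6% to 64.9% in Muc2-/-, so sums of this list lean on that gene. Flt4 had 1.46, 0.953 and 0.699 counts per count of Kdr in wild-type, against 0.378, 0.132 and 0.384 in Muc2-/-, again apart. Ratios within a library show unequal change and do not say which of the terms moved.

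Markers of the muscle wall moved with the lymphatic genes. The summed lymphatic level was 146, 60.6 and 58.7 CPM in wild-type and 40.9, 23.7 and 33.8 CPM in Muc2-/-, a mean 2.69-fold lower. Ccl21a was the largest part of that sum in every library. The 10 smooth muscle markers summed to 21060, 12310 and 5939 CPM in wild-type and 4565, 4141 and 2551 CPM in Muc2-/-, 3.49-fold lower and likewise without overlap, led by Des, the muscle intermediate filament protein. All 10 were lower at an unadjusted p under 0.05 in edgeR, beside 12.7% of all tested genes, and 9 fell in DESeq2, beside 6.59%. As a share of the smooth muscle sum, the lymphatic sum was 0.692%, 0.492% and 0.988% in wild-type and 0.896%, 0.572% and 1.32% in Muc2-/-, and here the groups overlapped. Colon epithelium markers, led by Krt8, were higher as a sum in every Muc2-/- library (18260 to 27860 CPM against 8577 to 15290 CPM). The part of tissue composition in the lymphatic values was not tested.

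**Figure D3:**
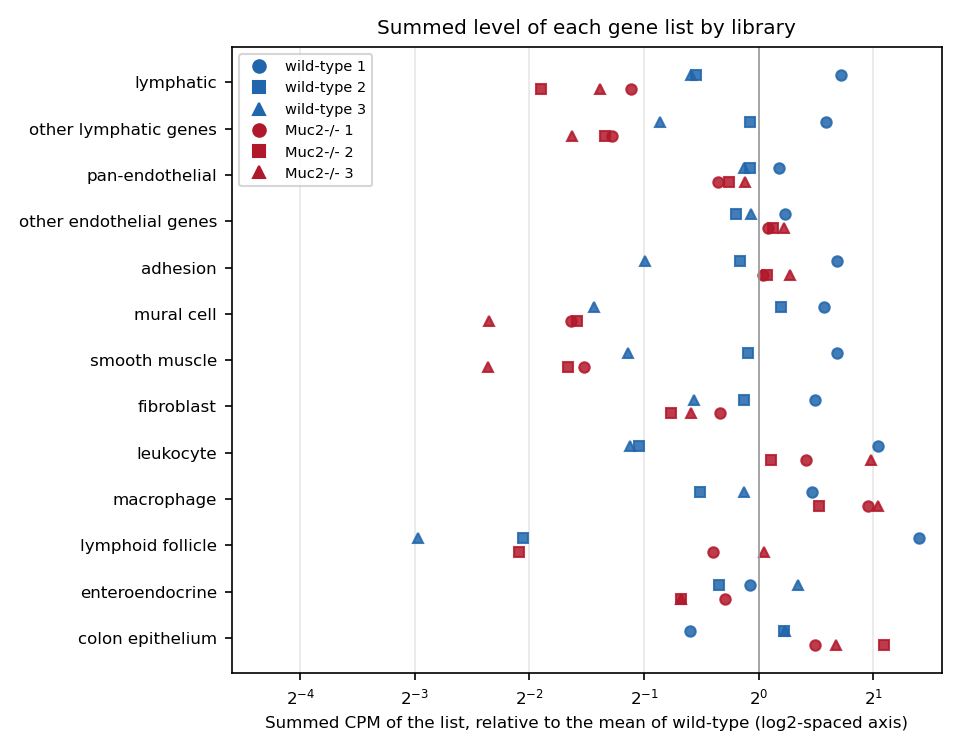
Summed CPM of each gene list in each library relative to the wild-type mean, on a log2-spaced axis. The lymphatic, other lymphatic, mural cell and smooth muscle sums of all 3 Muc2-/- libraries lie left of all 3 wild-type libraries, while the adhesion, other endothelial and pan-endothelial sums (the last with Plvap included) overlap. Ccl21a is the largest part of the lymphatic sum in every library. The other lymphatic sum is mostly Nrp2 and Itga9, which muscle cells also make.

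The pan-endothelial genes gave no call, and most were somewhat lower on average in Muc2-/-. Their summed level was 208, 174.5 and 168.5 CPM in wild-type and 144, 153 and 169 CPM in Muc2-/-, with Muc2-/- 3 inside the wild-type range. That overlap rests on Plvap, the member of highest CPM in Muc2-/-. Without it, a choice made after seeing the data, the other 18 genes summed to 188, 148 and 135 CPM in wild-type, against 110.0, 114.0 and 129 CPM in Muc2-/-, 1.33-fold lower and without overlap. Of the 19, 16 had a negative and 3 a positive log2 fold change, with Flt1 and Sox18 turning negative under library totals alone. None passed edgeR or DESeq2 (0 of 19). In edgeR 2 were lower at an unadjusted p under 0.05, beside 12.7% of all tested genes. The groups did not overlap for 3 lower genes and 1 higher gene, beside 15.2% and 13.4% of all tested genes. The counts of lower genes are near those shares. Without wild-type 1, the median log2 fold change was -0.17 in place of -0.39.

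Of the junction and surface proteins, Pecam1 (CD31), which joins endothelial cells to each other and is the common marker of vessels, measured 26.3, 18.4 and 22.4 CPM in wild-type and 14.4, 10.7 and 17.3 CPM in Muc2-/-. The groups did not overlap, though only a small gap parted them. Its log2 fold change was -0.66 ± 0.26 (SE; edgeR, adjusted p = 0.200). Cd34, a sialomucin of small vessels and of stromal cells, measured 19.3, 15.6 and 19.1 CPM in wild-type and 11.3, 13.5 and 8.15 CPM in Muc2-/-. It too did not overlap, at -0.72 ± 0.26 (SE; edgeR, adjusted p = 0.178). The fibroblast markers, which cover cells that also carry Cd34, summed to 1505, 978 and 725 CPM in wild-type and 847, 628 and 710 CPM in Muc2-/-. Of the 9 markers, 4 (Dcn, Lum, Dpt and Fbln1) were lower in DESeq2, beside 6.59% of all genes. The part of fibroblasts in the Cd34 value was not tested.

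Cdh5, the VE-cadherin of adherens junctions, measured 8.46, 6.04 and 5.19 CPM in wild-type and 3.81, 2.18 and 6.29 CPM in Muc2-/-, where Muc2-/- 3 exceeded 2 wild-type libraries. Esam, an immunoglobulin-type adhesion protein of tight junctions, ranged from 6.24 to 8.62 CPM in wild-type and from 5.17 to 7.92 CPM in Muc2-/-. Emcn, an endomucin of capillaries and venules, ranged from 3.92 to 4.76 CPM and from 2.53 to 6.997 CPM, with Muc2-/- 2 above and the other Muc2-/- libraries below all wild-type values. Ecscr, a surface protein of endothelial cell migration, ranged from 7.05 to 18.1 CPM and from 3.43 to 10.4 CPM, and Vwf, the clotting factor stored in endothelial granules, from 10.9 to 15.5 CPM and from 7.37 to 11.3 CPM. The log2 fold changes of these 5 genes ran from -0.71 for Ecscr to -0.07 for Emcn.

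The receptors of the growth factors came next. Kdr (VEGFR2), the main signalling receptor of blood vessels, whose promoter is printed above, measured 10.2, 7.81 and 9.48 CPM in wild-type and 7.08, 7.53 and 8.52 CPM in Muc2-/-, at -0.25 ± 0.26 (SE; edgeR, adjusted p = 0.625). Flt1 (VEGFR1), which binds Vegfa and dampens its signal, measured 4.70, 6.71 and 7.05 CPM against 6.48, 7.79 and 6.60 CPM, at 0.18 ± 0.30. Both overlapped between the groups. The angiopoietin receptor Tek (Tie2) measured 4.37, 3.17 and 3.62 CPM in wild-type and 3.03, 2.90 and 2.59 CPM in Muc2-/-, without overlap but at only -0.39 ± 0.36 (SE; edgeR, adjusted p = 0.571). Its partner Tie1 (-0.41), the phosphatase Ptprb that restrains Tek (-0.25), the TGF-beta co-receptor Eng (-0.40) and the guidance receptor Robo4 (-0.20) overlapped. Thus, of the VEGF receptors, Flt4 had the largest log2 fold change in size, and no test compared it with Kdr or Flt1.

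Transcription factors and secreted regulators were at low levels. Erg, an ETS factor that maintains endothelial identity, measured 2.38, 1.15 and 1.62 CPM in wild-type and 1.07, 0 and 1.48 CPM in Muc2-/-, and Sox17, a factor of arterial endothelium, measured 1.93, 1.46 and 0.619 CPM against 0.952, 0.132 and 0.741 CPM. Both had their lowest value in Muc2-/- 2, which had 0 counts for Erg. These 2 are the tested members that did not reach the CPM of the filter in every library. Sox18, a SOX factor of blood and early lymphatic vessels, was close to level at 3.43 to 3.59 CPM in wild-type and 3.09 to 3.95 CPM in Muc2-/-. Egfl7, a secreted factor that guides vessel tube formation, ranged from 4.86 to 10.6 CPM and from 5.29 to 8.58 CPM. The Egfl7 row overlaps Agpat2 on the other strand (13738 counts to 754 of Egfl7), and the sources used here do not state whether counting used strand, so reads of both cannot be told apart. The same holds for Eng with Fpgs and for Ecscr and Plvap with their antisense neighbours, while Ackr1 overlaps Cadm3 on its own strand.

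Plvap was the one member that was higher in Muc2-/- without overlap of the groups. It forms the diaphragms of fenestrated and gut capillaries, serves as a marker of the gut vascular barrier, and lies on chromosome 8, 71950409 to 71964396, minus strand. It measured 20.1, 26.4 and 33.9 CPM in wild-type and 34.1, 39.3 and 40.4 CPM in Muc2-/-, with means of 26.8 ± 6.93 and 37.9 ± 3.37 CPM (SD, n = 3). All Muc2-/- values were above all wild-type values, but by a small margin between Muc2-/- 1 and wild-type 3. On the log2 scale this came to 0.50 ± 0.23 (SE), with an adjusted p of 0.261 in edgeR and 0.318 in DESeq2, and without wild-type 1 to 0.33. Per count of Pecam1, Plvap had 0.763, 1.44 and 1.51 counts in wild-type, against 2.37, 3.68 and 2.34 in Muc2-/-. That ratio did not overlap, with Pecam1 lower and Plvap higher on average in Muc2-/-.

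The adhesion and trafficking genes overlapped between the groups without exception among the 5 tested, and 0 passed edgeR or DESeq2, with 0 at an unadjusted p under 0.05 in edgeR. The median log2 fold change was -0.20 over the 5 tested genes. Over all 7, Sele and Selp included, it was 0.26 (edgeR with no filter) and 0.32 (DESeq2). That turn in sign rests on Sele and Selp, which were near the limit of detection. The DESeq2 median is the value of Sele itself (0.32 ± 2.9, SE), on 5 counts in each group. The summed level of the 7 genes was 1.10-fold higher in Muc2-/-. The sum was 40.6, 22.6 and 12.8 CPM in wild-type, against 26.0, 26.5 and 30.6 CPM in Muc2-/-. Vcam1, the ligand of integrin alpha4 beta1 on cytokine-activated endothelium, measured 18.8, 9.99 and 7.19 CPM in wild-type and 14.3, 19.4 and 14.8 CPM in Muc2-/-. Wild-type 1 lay among the Muc2-/- libraries and the other wild-type libraries below them. On the log2 scale the change was 0.43 ± 0.37 (SE; edgeR, adjusted p = 0.546), and without wild-type 1 it was 0.91.

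Madcam1, whose promoter with 2 NF-kappaB matches is printed above, measured 4.42, 2.39 and 0.953 CPM in wild-type and 2.68, 2.18 and 5.31 CPM in Muc2-/-, at 0.39 ± 0.63 (SE; edgeR, adjusted p = 0.762). Icam1, the ligand of leukocyte beta2 integrins, measured 9.45, 4.68 and 2.38 CPM against 4.76, 1.85 and 7.71 CPM, at -0.20 ± 0.64. In both genes wild-type 1 was high, wild-type 3 low, and Muc2-/- 3 high. The follicle markers had the same highest library in each group, wild-type 1 and Muc2-/- 3, and the same lowest ones, wild-type 3 and Muc2-/- 2. Their part in the Madcam1 and Icam1 values was not tested. Without wild-type 1, the log2 fold change was 1.014 for Madcam1 and 0.43 for Icam1, so the sign for Icam1 turned.

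Icam2, a constitutive endothelial integrin ligand, ranged from 1.24 to 3.54 CPM in wild-type and from 0.990 to 1.85 CPM in Muc2-/-, at -0.48 ± 0.57. Ackr1, the chemokine receptor that marks venules, measured 3.76, 3.75 and 0.953 CPM against 1.84, 1.72 and 0.802 CPM, at -0.95 ± 0.63. The selectins that begin leukocyte rolling were near the limit of detection. Sele had 5, 0 and 0 counts in wild-type and 0, 5 and 0 counts in Muc2-/-, and Selp had 5, 8 and 1 counts against 15, 1 and 2 counts. Neither passed the filter on low counts, so the reported edgeR fit did not test them. DESeq2 gave Selp a log2 fold change of 0.58 ± 1.4 (SE, adjusted p = 0.875) and gave Sele no adjusted p. At such counts only a large difference could have been seen.

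**Figure D4:**
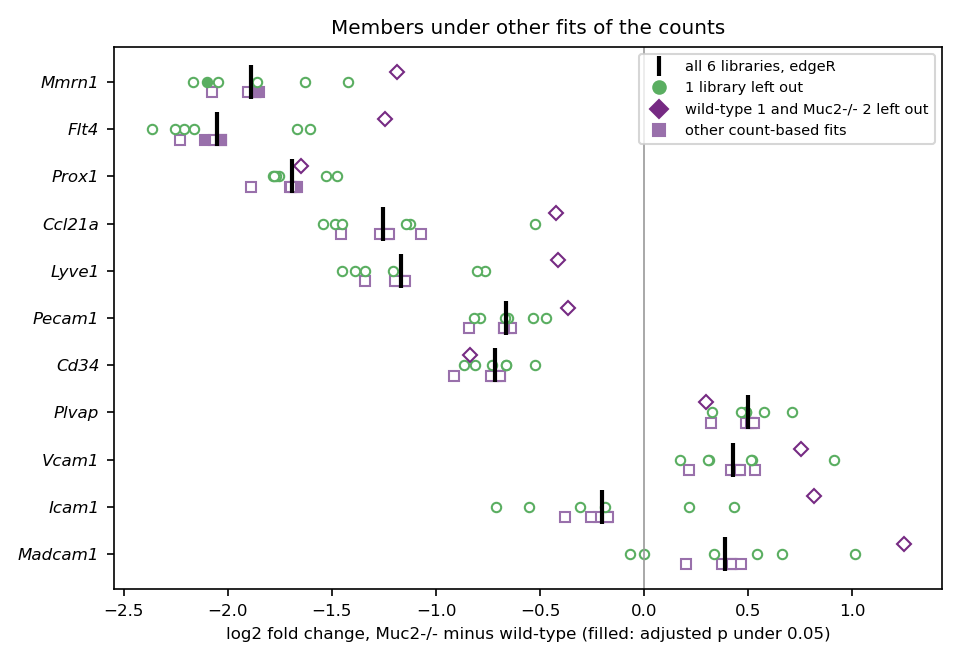
Log2 fold change of selected members under edgeR with all 6 libraries (black bar), with 1 library left out (circles), with wild-type 1 and Muc2-/- 2 both left out (diamonds) and under other fits of the counts (squares), filled where the adjusted p was under 0.05. The 5 lymphatic genes stay left of 0 at every point drawn, Plvap and Vcam1 stay right of it, and Icam1 and Madcam1 lie on both sides; fits of FPKM are not drawn.

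Per transcript length, on the scale of the deposited FPKM, Ccl21a had the highest mean level of the 31 genes in both groups, at 48.5 ± 32.7 in wild-type and 20.7 ± 4.55 in Muc2-/- (SD, n = 3). Plvap was second in both, at 13.4 ± 3.79 and 19.2 ± 1.87. Ccl21a was above Plvap in all 3 wild-type libraries, while in Muc2-/- the means of both genes differed by less than the SD of Ccl21a. Mmrn1 was 7th in wild-type and 19th in Muc2-/-, and Flt4 18th and 26th. Madcam1 went the other way, from 13th to 6th, with SDs (1.16 and 1.17) wider than the gap between its means of 1.77 and 2.37. The lowest places were held by Selp and Sele in both groups.

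Other genes of the lymphatic programme were mostly lower on average. Of 8 listed, 5 could be tested, with a median log2 fold change of -1.47, and 3 fell in DESeq2 while 0 passed edgeR (3 at an unadjusted p under 0.05), beside 6.59% of all genes lower in DESeq2. Stab2, a hyaluronan scavenger receptor, measured 3.21, 0.885 and 0.857 CPM in wild-type and 0.297, 0 and 0.123 CPM in Muc2-/- (DESeq2 log2 fold change -3.50, adjusted p = 0.0133), on 93 and 7 counts in all, 58 of them in wild-type 1. Nrp2, a co-receptor of Flt4, measured 181.5, 125 and 74.2 CPM against 49.6, 47.4 and 40.2 CPM (DESeq2, -1.44, adjusted p = 0.00113). Itga9, an integrin of lymphatic valves, measured 87.1, 48.0 and 21.3 CPM against 20.2, 16.1 and 13.3 CPM (DESeq2, -1.62, adjusted p = 0.00725). Nrp2 and Itga9 held most of the summed level of this list in every library. Both followed the wild-type order of the smooth muscle sum, and both are also made by muscle cells, whose part in these values was not tested. Pdpn, the podoplanin of lymphatic vessels and of fibroblasts, was level at 6.96 ± 2.84 and 6.94 ± 1.36 CPM (SD, n = 3).

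Of 26 other endothelial genes, 25 could be tested, with a median log2 fold change of -0.21, and 1 rose in DESeq2 while 0 passed edgeR (1 at an unadjusted p under 0.05). DESeq2 called 3.23% of all genes higher, so 1 of 26 is near that background. That gene was Notch4, an endothelial Notch receptor, which measured 11.4, 6.97 and 14.3 CPM in wild-type and 36.1, 48.5 and 45.6 CPM in Muc2-/-. Every Muc2-/- value was above every wild-type value. The Muc2-/- mean of Notch4 (43.4 CPM) was also above that of Plvap (37.9 CPM), the highest of the pan-endothelial genes there. Which cells made Notch4 was not tested. Its log2 fold change was 1.99 ± 0.29 (SE; edgeR, adjusted p = 0.0672), and DESeq2 gave 2.01 (adjusted p = 1.2e-06). Cldn5, the endothelial claudin, measured 7.74, 3.75 and 3.71 CPM in wild-type and 1.84, 4.88 and 1.11 CPM in Muc2-/-, with overlap.

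Of 12 vascular growth factors and co-receptors, 1 fell and 1 rose in DESeq2 and 0 passed edgeR (1 at an unadjusted p under 0.05), beside the DESeq2 shares of 6.59% lower and 3.23% higher over all genes, so these counts are near that background. Vegfb, a ligand of Flt1, measured 32.8, 32.0 and 18.7 CPM in wild-type and 13.5, 12.8 and 13.3 CPM in Muc2-/- (DESeq2, -1.05, adjusted p = 0.0115). Angpt4, an angiopoietin, rose in DESeq2 (3.08, adjusted p = 0.0276) on 10 counts in wild-type and 66 in Muc2-/-, of which Muc2-/- 2 held 45. Vegfa, Vegfc, Vegfd, Angpt1 and Angpt2 were not called. Vegfa was at 59.5 ± 6.91 and 57.9 ± 10.5 CPM, and Vegfc, a ligand of Flt4, at 6.80 ± 2.83 and 6.21 ± 1.39 CPM (SD, n = 3). Vegfd, also a ligand of Flt4, was at 1.64 ± 0.61 and 0.887 ± 0.268 CPM, with overlap. Angpt1 was at 2.49 ± 1.75 and 0.944 ± 0.419 CPM, with overlap, and Angpt2 at 2.75 ± 0.70 and 1.68 ± 0.21 CPM, without. Of the 11 genes tested in edgeR, 8 had a negative and 3 a positive log2 fold change.

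On the leukocyte side, 9 counter-receptors of the adhesion genes had a median log2 fold change of 0.86, and 1 rose in DESeq2 while 0 passed edgeR (1 at an unadjusted p under 0.05), beside 3.23% of all genes higher in DESeq2. Itgam, the myeloid integrin that binds Icam1, measured 0.939, 1.67 and 2.00 CPM in wild-type and 3.51, 4.22 and 6.05 CPM in Muc2-/- (DESeq2, 1.59, adjusted p = 0.0169). Itgb7, the chain of the gut-homing integrin that binds Madcam1, measured 8.34, 2.50 and 2.00 CPM against 10.8, 6.21 and 11.7 CPM, with overlap through wild-type 1. General leukocyte markers, led by Coro1a, summed to 214, 50.7 and 47.8 CPM in wild-type and 139, 112.5 and 205.5 CPM in Muc2-/-, with wild-type 1 highest of all.

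Some markers of mural cells, which wrap small vessels, were lower. The 9 listed markers summed to 916, 709.5 and 228 CPM in wild-type and 198, 206 and 121 CPM in Muc2-/-, without overlap. Rgs5, the leading pericyte marker, fell in DESeq2 (-2.17, adjusted p = 0.00074), as did Cspg4, Abcc9 and Mcam. These were 4 of the 8 markers with an adjusted p, beside 6.59% of all genes lower. In edgeR 0 passed, with 5 lower at an unadjusted p under 0.05, beside 12.7% of all tested genes. The sum was mostly Rgs5 and Mcam. Pdgfrb, the defining receptor of pericytes, was at 16.1 ± 4.21 and 15.5 ± 2.25 CPM (SD, n = 3). Cspg4 (log2 fold change -1.44), Kcnj8 (-0.65) and Ndufa4l2 (0.27) overlapped between the groups. Notch3 (-1.62) was lower without overlap but was not called. Smooth muscle cells carry several of these genes too, and the sums of both lists had the same order of libraries in wild-type.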

How the data were processed

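Groups and replicate numbers came from the sample titles. The authors deposited raw counts for each gene, in whole numbers, and FPKM values. Each deposited FPKM equals the count over the gene's length and over the library's total multiplied by a factor, from 0.860 to 1.14. The submitters' processing notes name mm10, featureCounts 1.5.0-p3, HISAT2 2.0.5, DESeq2 1.20.0 and StringTie 1.3.3b, with neither role nor order. Gene coordinates are those of the count table: of 52081 gene identifiers found in GENCODE M21 too, 51497 spanned an equal width but 1494 an identical interval, so the table's coordinates are not of that annotation's build, GRCm38. The strand setting is not stated in the sources used here.

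Counts were tested over all genes with edgeR 4.0.16 (R 4.3.3, limma 3.58.1, statmod 1.5.0): TMM factors, the default filter (minimum count of 10, total of 15), a quasi-likelihood fit on genotype alone and Benjamini-Hochberg adjustment at 0.05. Erg and Sox17 passed that filter without reaching it in every library, and 27 of 29 tested members reached it in all 6. Replicates differed beyond counting noise (chi-square of 25.0 to 148 per degree of freedom) and each counts as 1 sample. The procedure was tested on simulated data. Counting limits cover counting error only.

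The members, lists, tests and naming rule were chosen with earlier results of these data known. Every member is named; of each other list, genes called by edgeR or DESeq2, or else those of highest mean, and of marker lists the sum, the genes at 0 and the leading gene. Genes outside that rule (Cldn5, Pdpn, Vegfa, Vegfc, Itgb7, Ccl21b and single marker genes) were named after their values were seen. Alternatives were RLE factors, library totals alone, no filter, 1 CPM in 3 libraries, DESeq2 1.42.0, limma on log2(FPKM + 1) and log2(FPKM + 0.1), the replicate number as a block, each library left out, and wild-type 1 and Muc2-/- 2 left out together.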

Additional observations from a re-analysis of the deposited data

How the results depend on the processing

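Over 15 alternatives, the 5 lymphatic genes were lower in Muc2-/- in every fit, with log2 fold changes from -2.17 to -1.06 for Mmrn1, -2.37 to -0.73 for Flt4, -1.89 to -0.31 for Prox1, -1.54 to -0.42 for Ccl21a and -1.45 to -0.42 for Lyve1. Of the 29 tested members, 19 kept their sign throughout. Genes called over all genes numbered 20 in the reported fit and 8 with library totals alone, 1199 with no filter, 1867 in DESeq2, 52 on log2(FPKM + 1), 51 on log2(FPKM + 0.1), 673 with the replicate block, 1 without wild-type 1 and Muc2-/- 2, and 0 to 1226 with 1 library left out (1226 without wild-type 3, 0 without wild-type 2). Members called were 2 with no filter, 3 in DESeq2, 2 with the replicate block and 0 to 1 with 1 library left out. The cause of these differences was not tested. Of the 20 calls in the reported fit 17 were higher, while higher calls made up 32.0% with no filter, 32.9% in DESeq2 and 33.4% with the replicate block. Same-numbered libraries deviated together with correlations of 0.09, 0.28 and 0.06. Wild-type 3 correlated about as well with Muc2-/- 1 (0.07) as with Muc2-/- 3 (0.06). Such small correlations, from 3 libraries in each group, cannot decide whether the numbers pair the libraries.

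Library totals alone moved the median of all genes from -0.01 to -0.20, and the signs of Flt1 (-0.01) and Sox18 (-0.16) turned with it, although both stayed above that median. The median of the pan-endothelial genes moved to -0.16 on log2(FPKM + 1) and to -0.16 without wild-type 1 and Muc2-/- 2, that of the lymphatic genes to -0.89 on log2(FPKM + 1), and that of the adhesion genes to 0.76 without those libraries. With 1 library left out, the medians ranged from -0.43 to -0.17 for pan-endothelial, -0.64 to 0.43 for adhesion and -1.78 to -1.42 for lymphatic genes. Without wild-type 1 and Muc2-/- 2, the sign turned for Flt1 (-0.076), Eng (0.068), Sox18 (-0.008), Ecscr (0.063), Icam1 (0.82) and Icam2 (0.39). With 1 library left out, values ranged from -0.71 to 0.19 for Emcn, -0.37 to 0.20 for Egfl7, -0.041 to 0.12 for Sox18, -0.43 to 0.12 for Robo4, -0.71 to 0.43 for Icam1, -0.73 to 0.17 for Icam2 and -0.066 to 1.014 for Madcam1, so the direction of each depends on 1 library. Depth limits Sele, Selp, Erg and Sox17 most, and log2(FPKM + 1) understates changes of low genes such as Prox1.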
